A study of Zea mays with 2 samples.

Results

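The sites described here are the widest MNase hypersensitive sites of maize leaf. They were chosen by width alone: every row of the authors' merged peak list whose end lies at least 600 bp beyond its start. The rule picked 1337 of the 66801 merged peaks, or 2.00% (Wilson 95% interval 1.90 to 2.11%). The comparison class is the 28923 merged peaks of 200 to 400 bp, which make up 43.3% of the list.

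Micrococcal nuclease (MNase) cuts DNA that is not wrapped in nucleosomes faster than DNA that is. In MH-seq the short fragments freed by a light digestion are sequenced, and places where they pile up are called as hypersensitive sites, which in plants typically include promoters and distal regulatory elements bound by transcription factors. A site of the width described here is longer than the DNA wrapped by a single nucleosome, so it can hold several stretches of fragment accumulation within the same call.

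All libraries belong to a single group, B73 maize (Zea mays, the inbred line of the reference genome), with tissue given as leaf, age as 10 days and digestion as 100 U MNase. It has 2 replicates. Tissue came from 10 plants, nuclei were fixed with formaldehyde before digestion, and DNA of 40 to 100 bp was cut from a gel. The protocol also mentions whole seedlings of another age and a heavier digestion, neither of which the 2 samples are labelled with. The labels do not tell whether plants were harvested separately for each replicate, and the spread between replicates can therefore be technical. With no undigested, naked-DNA or other-tissue group, all comparisons are between widths, positions and replicates. Replicate 1 holds 74443 peaks and replicate 2 holds 60518. Neither list carries read totals, and library depth is unknown. Intervals printed with shares cover counting error only. Positions are 1-based on B73 RefGen_v4.

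Sites of 600 bp or more were the far tail of the width distribution. Their median width was 677 bp (interquartile range 636 to 748 bp) and the widest reached 1333 bp. By 100 bp steps there were 809 sites from 600 bp, 323 from 700 bp, 127 from 800 bp and 49 from 900 bp, and a further 29 had 1000 bp or more. The sites covered 947 kb, which is 5.76% of all base pairs in merged peaks. Little separated the peaks on either side of the limit: the 277 peaks up to 20 bp below it had a median fold enrichment over background of 9.39, and the first 204 above it, to 619 bp, had 8.92. The first 3 sites of exactly 600 bp in genome order, all on chromosome 1, had fold enrichments of 6.38, 11.4 and 16.3, and the first 3 peaks 1 bp narrower had 13.1, 8.52 and 7.98.

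**Figure D1:**
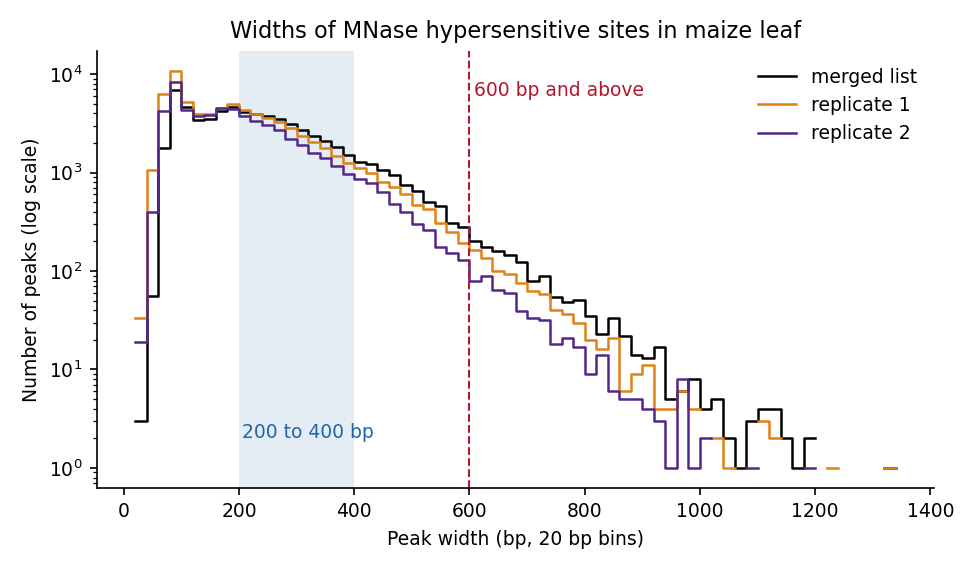
Number of peaks (log scale) by width in 20 bp bins for the merged list and each replicate's own list; the dashed line marks 600 bp and the shaded band 200 to 400 bp. Above 400 bp all 3 curves fall by and large, with uneven steps where bins hold few peaks, and the merged list has 1337 peaks of 600 bp or more against 908 in replicate 1 and 514 in replicate 2.

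Each replicate's own list held fewer wide peaks than the merged list. Replicate 1 had 908 peaks of 600 bp or more (1.22% of its list) and replicate 2 had 514 (0.849%), a mean of 1.03% ± 0.262 (SD, n = 2). The merged peak was wider than the widest overlapping peak of both replicates at 1177 of the 1337 sites (88.0%). The same held for 79.3% of the 200 to 400 bp peaks.

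Wide sites were mostly of upper-middle strength at their summits. Fold enrichment, the authors' value at the summit, had a median of 8.91 (interquartile range 7.29 to 10.9), against 8.50 (6.65 to 11.01) in the 200 to 400 bp peaks and 7.49 over all merged peaks. When the merged list was cut into quintiles of fold enrichment, the strongest held 367 of the wide sites (27.4%) and the same share, 27.4%, of the 200 to 400 bp peaks. The weakest held 60 wide sites (4.49%), against 10.5% of the 200 to 400 bp peaks. From the weakest quintile to the strongest, wide sites made up 0.449%, 1.21%, 2.43%, 3.18% and 2.75% of merged peaks, against 2.00% in the whole list. They were thus below their overall share in the weakest 2 quintiles and above it in the other 3, most of all in the second strongest. Of the 100 highest fold enrichments 2 belonged to wide sites, and of the 1000 highest 23 (2.30%). In classes of 100 bp, median fold enrichment rose with width from 8.25 in the class that starts at 200 bp to 9.45 in the class from 500 bp. It was 8.84 in the class from 600 bp, 8.87 from 700 bp, 9.55 from 800 bp and 9.26 for 900 bp or more. These are the peaks' own values from the call that gave the width, so they carry no test.

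At equal fold enrichment the deposited −log10 q was higher in wide sites. Among peaks with a fold enrichment from 8 to 9 its median was 64.4 in 202 wide sites (interquartile range 54.6 to 73.1) and 49.8 in 3517 peaks of 200 to 400 bp (38.8 to 60.8). From 5 to 6 the medians were 37.4 and 27.1, and from 10 to 12 they were 80.5 and 69.6. From 12 to 16 they were 89.3 and 87.7. The gap between the classes was thus present up to a fold enrichment of 12 and small only from 12 to 16.

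The strongest wide site lay at chr1:43552935-43553661 (727 bp). Its fold enrichment reached 30.4 when merged, 30.9 for replicate 1 and 28.9 for replicate 2, with the summits of both replicates on the same base. The next strongest was chr10:138831153-138831871 (719 bp), with 25.9 when merged, 28.8 for replicate 1 and 20.8 for replicate 2. The 3 that follow were chr9:145601014-145601620, chr1:11637042-11637675 and chr5:94096585-94097188, with fold enrichments of 22.2, 21.9 and 21.8. In these last 3 the replicate summits lay within 5 bp of each other and each replicate held a single peak of 490 to 584 bp. The weakest wide sites sat at the limit of the list, where no merged peak has a fold enrichment under 5. They were chr2:201963910-201964524 with 5.01, chr9:116294337-116295103 with 5.02 and chr4:38554827-38555549 with 5.05. The last 2 were found in replicate 1 alone, as a peak of 693 bp in each case.

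Summits of wide sites were spread over most of the peak rather than gathered at its centre. The median distance of the summit from the peak centre was 21.0% of the width, against 16.1% in the 200 to 400 bp peaks. In the replicates' own lists it was 21.8% and 23.0% for wide peaks (mean 22.4% ± 0.801, SD, n = 2), and 17.5% and 17.9% for peaks of 200 to 400 bp. The outermost 20% at either edge held the summit of 326 wide sites (24.4%, 22.2 to 26.8%) but of 8.75% of the narrower class. In classes of 100 bp this share was 5.55% from 200 bp and 14.3% from 300 bp. It was 18.0% from 400 bp, 16.3% from 500 bp and 21.8% from 600 bp, so it was not particular to wide sites. The central 20% held 296 wide summits (22.1%), a smaller share than the 31.7% of the narrower class. Low and high coordinates were about equally used: 700 of 1337 summits (52.4%, 49.7 to 55.0%) lay in the part with lower coordinates.

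Cutting each peak into 10 equal bins, from its lowest to its highest coordinate, gives more detail. The fullest bin for wide sites was bin 3, with 221 summits (16.5%), and counts dipped to 143 in bin 5 before reaching 169 in bin 8. In the 200 to 400 bp peaks the fullest was bin 6, with 16.1%, and bins 3 to 8 held 13.6 to 16.1% each. The first and last bins together held 82 wide summits (6.13%) against 0.159% of the narrower class, in which such a bin spans fewer base pairs. In base pairs, however, the summit of a wide site was deep inside it, at a median of 200 bp from the nearer edge (interquartile range 142 to 272 bp), against 86 bp in the narrower class. That distance was 186 bp in the class from 600 bp, 208 bp in that from 700 bp, 243 bp in that from 800 bp and 255 bp for widths of 900 bp or more. Over those same classes the share of summits in the central 20% went from 23.98% to 14.1%. The summit nearest an edge, as a share of the width, was at chr1:31360687-31361308 (622 bp), 94.9% of the way along. There the strongest peaks of the 2 replicates had summits 458 bp apart. The summit comes from the same call as the width, so these comparisons carry no test.

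**Figure D2:**
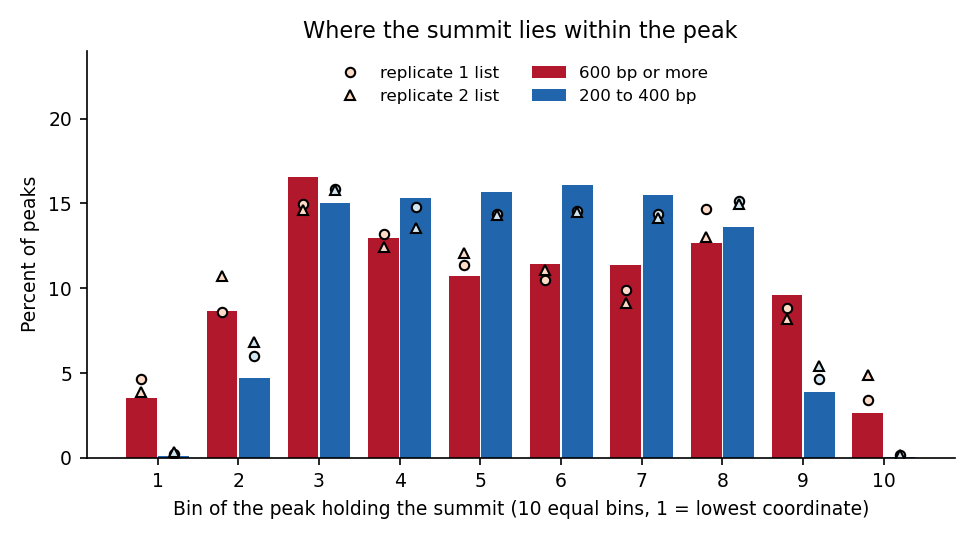
Percent of peaks whose summit lies in each of 10 equal bins of the peak, from the lowest to the highest coordinate, for sites of 600 bp or more (red) and peaks of 200 to 400 bp (blue); bars are the merged list, circles and triangles the replicates' own lists. Red bars are highest in bin 3, at 16.5%, and fall to 10.7% in bin 5 before 12.6% in bin 8, while blue bars are level from bin 3 to bin 7.

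Almost every wide site had a counterpart in both replicates. Peaks of both overlapped 1304 of the 1337 sites (97.5%, 96.6 to 98.2%), a further 29 overlapped replicate 1 alone, 4 replicate 2 alone, and none lacked both. The 29 found in replicate 1 alone had a median fold enrichment of 5.36 and a median width of 679 bp. They were thus as wide as the rest and weaker, the 1304 sites in both having medians of 8.97 and 677 bp. In the 200 to 400 bp class 90.1% were overlapped by both replicates. The share was 96.1% in the class from 400 bp, 97.4% from 500 bp and 97.3% from 600 bp, so it was not particular to wide sites. The merged list was made for these same libraries, so such overlaps are not independent evidence of recurrence.

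Wide sites were often broken into several peaks in a single replicate. Of the 1337, 894 (66.9%) had exactly 1 peak in each replicate, against 87.9% of the 200 to 400 bp class. Replicate 1 held 2 peaks inside 184 sites and 3 inside 15. Replicate 2 held 2 peaks inside 298 sites, 3 inside 14 and 4 inside 1. The share with 2 or more peaks was 14.9% in replicate 1 and 23.4% in replicate 2 (mean 19.1% ± 6.03, SD, n = 2), so it differed between the replicates by over 1.5 times. At least 1 replicate split 415 sites (31.0%, 28.6 to 33.6%), compared with 2.36% of the narrower class, and both split 97 (7.26%). For at least 1 replicate the share was 4.03% in the class from 300 bp, 8.40% from 400 bp and 15.6% from 500 bp. It was 26.0% in the class from 600 bp, so splitting rose with width and was not particular to wide sites. Counting all overlaps, a wide site held 1.16 peaks of replicate 1 and 1.22 of replicate 2 on average, against 0.987 and 0.938.

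Splitting was least frequent in the narrowest of the wide sites and most frequent in the widest. At least 1 replicate split 26.0% of sites in the class from 600 bp, 35.6% from 700 bp, 33.1% from 800 bp and 61.5% of the 78 sites of 900 bp or more. The breaks themselves were short. Between neighbouring peaks inside a site the gap had a median of 57.5 bp in replicate 1 (interquartile range 45.0 to 77.8 bp, 214 breaks) and 63.0 bp in replicate 2 (47.0 to 98.0 bp, 329 breaks). The shortest distance between any 2 peaks in a whole list came to 38 bp (replicate 1), 37 bp (replicate 2) and 19 bp (merged). Breaks of at most 100 bp made up 83.2% in replicate 1 and 75.7% in replicate 2. Summits on either side of a break were much farther apart, with medians of 392 bp and 378 bp, and the second strongest peak reached a median of 0.738 and 0.785 times the fold enrichment of the strongest.

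Where both replicates broke a site, they tended to do so in the same place. In 70 of the 97 such sites (72.2%, 62.5 to 80.1%) a gap of replicate 1 overlapped a gap of replicate 2, and the centres of the nearest gaps were a median of 44.0 bp apart. In the 200 to 400 bp class the same was true of 34 of 37. A clear case is chr3:205742971-205744099 (1129 bp). Replicate 1 had peaks of 821 and 228 bp there, parted after base 205743825. Replicate 2 had peaks of 517, 249 and 217 bp, the second of which also ended at base 205743825. Fold enrichment there was 13.1 when merged, 16.0 for replicate 1 and 9.36 for replicate 2, and both replicate summits fell in the last and shortest peak, 4 bp apart. The merged summit lay 93.6% of the way along the site.

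The highest total of replicate peaks inside a site was 6, at a single site, and 14 sites had 5. These 14 ranged from 603 to 1129 bp in width, with a median of 829 bp. At the site with 6, chr2:44469292-44470391 (1100 bp), there were 2 peaks in replicate 1, of 641 and 462 bp, and 4 in replicate 2, of 221, 95, 122 and 332 bp. Of the 14 tied at 5, the 4 widest were taken as examples: chr3:205742971-205744099, chr3:169261165-169262289 and chr7:141623341-141624450 (1110 bp), with 2 peaks in replicate 1 and 3 in replicate 2, and chr6:97379037-97380071 (1035 bp), with 3 and 2. At this last site replicate 1 had 3 peaks, of which the middle one, of 502 bp, had a fold enrichment of 10.6 and those beside it 5.91 and 6.70. The merged list holds all 3 in a single call.

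Replicates placed the tallest part close together at most wide sites but differed at others. At the 1304 sites found in both, the summits of the strongest replicate peaks were a median of 27.0 bp apart (interquartile range 8.75 to 150 bp). They lay within 50 bp of each other at 744 sites (57.1%, 54.4 to 59.7%) and over 150 bp apart at 322 (24.7%, 22.4 to 27.1%). In the 200 to 400 bp class the summits agreed within 50 bp in 80.7% and were over 150 bp apart in 2.58%, a distance that a narrower peak has less room for. In classes of 100 bp, agreement within 50 bp fell from 83.9% from 200 bp to 75.4%, 68.8% and 64.2% in the next 3. It was 58.3% from 600 bp, so lower agreement was not particular to wide sites. Distances at wide sites did not fall off evenly: 741 were under 50 bp, 89 were 50 to 99 bp and 147 were 100 to 149 bp. At 155 sites (11.9%) the summits were over 300 bp apart.

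The merged fold enrichment was usually below the mean of the strongest overlapping peaks of the 2 replicates, and more so where their summits disagreed. The ratio of the merged value to that mean had a median of 0.968 at the 744 sites with summits within 50 bp and of 0.936 at the 322 with summits over 150 bp apart. In the 200 to 400 bp class the corresponding ratios were 0.990 and 0.946. Each replicate value was taken at that replicate's own summit. The measure itself can thus lower the ratio where those summits lie apart, which was not tested. Sites with disagreeing summits were also weaker, with median fold enrichments of 8.07 (merged), 9.19 (replicate 1) and 8.11 (replicate 2), against 9.61, 10.7 and 9.14 at sites whose summits agreed.

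The 10 widest sites show the range of patterns. The widest, chr9:117502078-117503410 (1333 bp), had a fold enrichment of 11.04 and its summit near the centre. Replicate 1 had peaks of 521 and 727 bp there, and replicate 2 a single peak of 970 bp. Second was chr1:60677703-60678901 (1199 bp, fold enrichment 8.69), which was a single peak in both replicates, of 1101 and 1194 bp, although their summits were 300 bp apart. Next was chr3:182975599-182976791 (1193 bp, 9.37), also single in both, at 1129 and 1006 bp, with summits 365 bp apart. These 2 are the sites among the 10 that each replicate alone would place above 1000 bp.

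At the other 7 at least 1 replicate had no peak above 1000 bp. At chr6:149373523-149374687 (1165 bp, fold enrichment 10.7) replicate 1 had a single peak of 1235 bp and replicate 2 had 2, of 379 and 450 bp, with the strongest summits 2 bp apart. At chr1:92055546-92056689 (1144 bp, 10.2) both replicates held 2 peaks and both resumed at base 92055934. At chr8:172694073-172695212 (1140 bp, 6.88) replicate 1 had 1 peak and replicate 2 had 3. At chr2:62320873-62322006 (1134 bp, 7.59) each had a single peak, of 689 and 840 bp, so that the merged call extended beyond both. Of the remaining 3, chr3:205742971-205744099 was described above, chr3:169261165-169262289 (1125 bp, 9.45) had strongest summits 641 bp apart, and chr3:228425116-228426237 (1122 bp, 5.50) had them 833 bp apart. Chromosome 3 carried 4 of the 10. The nearest merged peak to any of the 10 was 4548 bp away, and for 9 of them it was more than 9 kb away.

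Width recurred between replicates when sites were chosen in one and measured in the other. Of the 908 wide peaks of replicate 1, 871 overlapped a replicate 2 peak and 359 (39.5%, 36.4 to 42.8%) overlapped one that was itself 600 bp or more. For replicate 1 peaks of 200 to 400 bp the latter share was 0.313%. Averaged over chromosomes the difference was 39.3 ± 5.98 percentage points (SD over 10 chromosomes), positive on 10 of 10 (exact two-sided sign-flip permutation test, p = 0.00195, the smallest that 10 chromosomes allow; 0.0026 after Benjamini-Hochberg adjustment over the 4 tests made here). In the other direction, 359 of the 514 wide peaks of replicate 2 (69.8%, 65.7 to 73.7%) overlapped a wide replicate 1 peak, against 1.35% of its 200 to 400 bp peaks. That difference was 67.9 ± 6.96 percentage points, positive for all 10 chromosomes (exact sign-flip p = 0.00195, adjusted 0.0026). The p-values treat chromosomes of the same 2 libraries as units and say nothing about other plants. Equal shares in the 2 width classes were also hardly possible for replicates of a single group. The direction of both tests was thus largely set beforehand, and the p-values add little to the shares.

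Widths were lower in the replicate that did not choose the site, by more when replicate 1 chose. Choosing peaks for large width in 1 list by itself favours lower widths in the other, so the direction is a description only. Wide peaks of replicate 1 had a median width of 672 bp and their counterparts in replicate 2 one of 560 bp (interquartile range 403.5 to 658 bp). Wide peaks of replicate 2 had a median of 667.5 bp and their counterparts in replicate 1 one of 646 bp (578.5 to 722 bp). Counterparts were narrower in replicate 2 for peaks of 200 to 400 bp too. Their medians were 269 and 243 bp when replicate 1 chose, and 266 and 286 bp when replicate 2 chose. In replicate 2, 210 of the 908 wide peaks of replicate 1 (23.1%) were split into 2 or more peaks. In replicate 1, 71 of the 514 wide peaks of replicate 2 (13.8%) were. For the 1304 merged sites found in both, the widest counterpart had a median width of 614 bp (replicate 1) or 552 bp (replicate 2). Both replicates had a peak of 600 bp or more at 345 sites (25.8%) and neither had at 454 (34.0%), which reached the limit in the merged list alone.

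**Figure D3:**
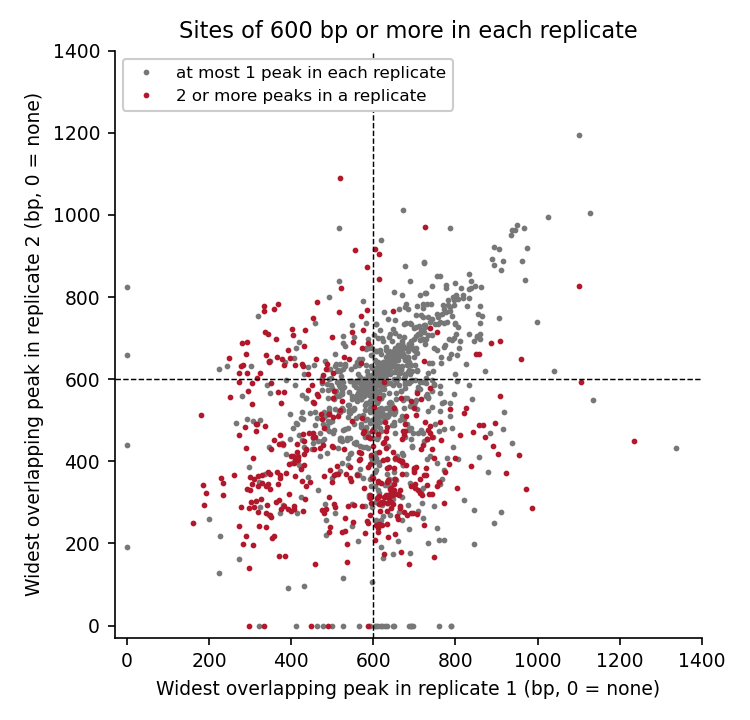
Width in bp of the widest overlapping peak in replicate 1 (horizontal) and replicate 2 (vertical) for each of the 1337 sites of 600 bp or more in the merged list, with 0 where a replicate has none; red points are sites with 2 or more peaks in a replicate and dashed lines mark 600 bp. The 345 sites at upper right are wide in both, and the 454 at lower left in neither.

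Wide sites had fewer close neighbours than narrower ones. Another merged peak lay within 1 kb, from edge to edge, of 341 wide sites (25.5%, 23.2 to 27.9%) and of 36.5% (35.9 to 37.1%) of the 200 to 400 bp peaks. Averaged over chromosomes the shares were 25.2% ± 3.14 and 36.6% ± 1.18, a difference of -11.3 ± 4.19 percentage points that was negative on 10 of 10 chromosomes (exact two-sided sign-flip permutation p = 0.00195, adjusted 0.0026 over the 4 tests). On single chromosomes it was smallest on chromosome 5, with 32.7% against 34.0%. Measuring from edge to edge means that width itself does not shorten the distance, but a neighbour that had been joined into the wide site no longer counts as one. At least 1 replicate had 2 or more peaks inside 31.0% of wide sites, against 2.36% of the narrower class. How far such joining lowers the count of close neighbours was not tested. The median gap to the nearest peak was 5830 bp for wide sites and 2491 bp for the narrower class. Within the wide class the share with a peak within 1 kb was 25.5% in the class from 600 bp, 28.8% from 700 bp, 18.9% from 800 bp and 23.1% for 900 bp or more. In the class from 500 bp it was 36.0%, so most of the drop fell between that class and the next.

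The shortage of neighbours ended at about 5 kb and then turned into a slight surplus. Per 100 wide sites there were 28.4 other peaks in the first kb on both sides together, 10.3 in the second, 5.76 in the third, 3.81 in the fourth and 8.23 in the fifth. From 5 to 6 kb there were 12.4, and from 6 to 7 kb 13.6. Around 200 to 400 bp peaks the same profile ran 42.8, 16.5, 9.79, 8.39 and 9.19, then 11.9 and 12.4. Wide sites therefore had less than the narrower class in every bin out to 5 kb and more in the next 2. Between 1 and 5 kb they had 28.1 neighbours per 100 sites against 43.8, fewer on 10 of 10 chromosomes. Between 10 and 20 kb they had 104 against 87.9, more on 9 of 10, and between 20 and 50 kb 262 against 227, more on 10 of 10.

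The replicates' own lists showed the shortage to 5 kb and the surplus from 10 to 20 kb, but differed between. In replicate 1 there were 30.0 neighbours per 100 wide peaks at 1 to 5 kb against 49.9 for the narrower class, and 114 against 98.5 at 10 to 20 kb. In replicate 2 there were 22.6 against 40.1, and 102 against 82.0. From 5 to 10 kb, however, replicate 1 had 71.5 against 64.7 and replicate 2 had 54.1 against 53.3, close to level. The share of sites with another peak 5 to 20 kb away, a distance chosen after seeing the data, was 68.0% for wide sites and 64.6% for the narrower class, as means over chromosomes, and is given as a description.

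**Figure D4:**
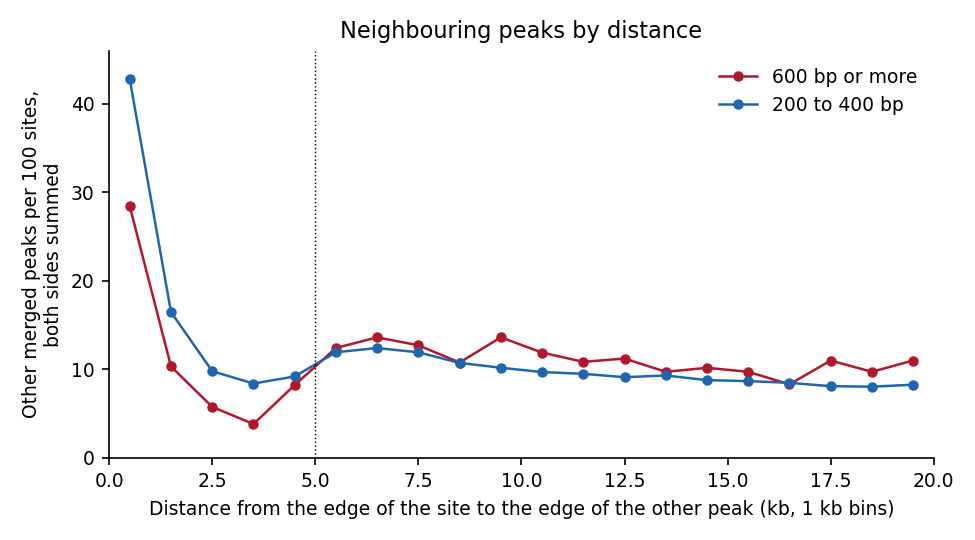
Number of other merged peaks per 100 sites, both sides summed, in 1 kb bins of distance between edges, for sites of 600 bp or more (red) and peaks of 200 to 400 bp (blue); the dotted line marks 5 kb. Red lies below blue in each bin to 5 kb, with its lowest point of 3.81 at 3 to 4 kb, and above it in all but 1 of the bins from 5 to 20 kb.

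Neighbours within 1 kb of a wide site were mostly weaker than the site. At the 341 sites that had one, the neighbour's median width was 223 bp (interquartile range 152 to 300 bp), against 233 bp for neighbours of 200 to 400 bp peaks and 220 bp over all merged peaks. Its median fold enrichment was 6.42, while the wide sites themselves had 8.53. It was weaker than the site in 259 cases (76.0%), compared with 59.3% for the 200 to 400 bp class. Peaks within 1 kb on both sides were found at 19 wide sites (1.42%), against 2.67% of the narrower class. Wide sites with a close neighbour were themselves slightly weaker than those without, with median fold enrichments of 8.53 and 9.03, and similar in width, at 666 and 679.5 bp. The 200 to 400 bp peaks differed in the same direction, with 8.07 and 8.77.

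Few wide sites lay within 5 kb of each other. Of the nearest neighbours within 1 kb, 2 of 341 (0.587%) were wide themselves, against 1.59% of the nearest neighbours of 200 to 400 bp peaks and 2.00% of all merged peaks. These 2 are the members of a single pair, each counted from its own side, so the share rests on very few sites. In all, 8 of the 1337 had another wide site within 5 kb, forming 4 pairs and no longer run. Within 20 kb 82 (6.13%) had one, a share with no counterpart counted for the narrower class. The median distance to the nearest wide site was 369638 bp. The closest pair was chr5:171557652-171558256 and chr5:171558454-171559184, of 605 and 731 bp with 197 bp between them. Their fold enrichments were 8.57 and 9.21, and both replicates had peaks in both. The next pair, 1414 bp apart, was chr4:38554827-38555549 and chr4:38556964-38557579, with fold enrichments of 5.05 and 5.81. Another, 1786 bp apart, was chr7:145649611-145650235 and chr7:145652022-145652741, with 7.17 and 8.97. In each of these last 2 pairs 1 site had no replicate peak above 300 bp. The most isolated wide site was chr9:79123888-79124571 (684 bp, fold enrichment 9.13), with 245239 bp to the nearest merged peak, followed by chr3:88121517-88122253 with 205200 bp and chr4:80005313-80005975 with 180400 bp.

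Every chromosome carried wide sites, at rates that differed by about 1.5 times between the lowest and the highest. They made up 1.99% ± 0.238 of merged peaks per chromosome (SD over 10 chromosomes), from 1.56% on chromosome 4 to 2.33% on chromosome 3. Their number ran from 88 on chromosome 10 to 229 on chromosome 1. Chromosome 4 was lowest by length too, with 0.453 wide sites per Mb against 0.746 on chromosome 1. Chromosome lengths here are the last peak end in any list, a lower bound.

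With both chromosome ends pooled, wide sites lay in the outer parts slightly more than narrower ones, but not at the very tips. The outer 20% of length at each end held 759 of them (56.8%, 54.1 to 59.4%) and 52.9% (52.3 to 53.5%) of the 200 to 400 bp class. Averaged over chromosomes the shares were 56.9% ± 4.12 and 53.1% ± 3.42, a difference of 3.88 ± 2.96 percentage points that was positive on 9 of 10 chromosomes (exact two-sided sign-flip permutation p = 0.00391, adjusted 0.00391 over the 4 tests). This result was less firm than the others: with a limit of 500 bp in place of 600 bp the difference was -0.259 points (exact sign-flip p = 0.727). It was also not past 0.05 in either replicate's own list, at 3.10 points in replicate 1 and 3.34 in replicate 2 (exact sign-flip p = 0.0586 and 0.203). The 2 ends were not tested apart, and they were not alike. The first 2 of 10 equal bins of chromosome length held 14.9% and 8.83% of wide sites, against 13.5% and 9.91% of the narrower class. The last 2 bins held 16.8% and 16.3%, against 13.5% and 15.9%.

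In the outermost 5 Mb at each end wide sites were scarcer than the narrower class. There were 63 of them there (4.71% of all wide sites) against 7.60% of the 200 to 400 bp class, and the share was lower on 9 of 10 chromosomes. The difference averaged over chromosomes was -2.90 percentage points (exact sign-flip permutation p = 0.00781, not adjusted). From 5 to 10 Mb from the nearer end the shares were 9.05% and 7.64%, higher for wide sites on 8 of 10 chromosomes, and from 10 to 20 Mb they were 16.4% and 13.0%, higher on 9 of 10. Per 100 peaks of 200 to 400 bp there were 2.87 wide sites within 5 Mb of an end, 5.48 from 5 to 10 Mb, 5.82 from 10 to 20 Mb and 4.22 beyond 50 Mb. With both ends pooled, the excess thus lay in a band behind the tips.

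**Figure D5:**
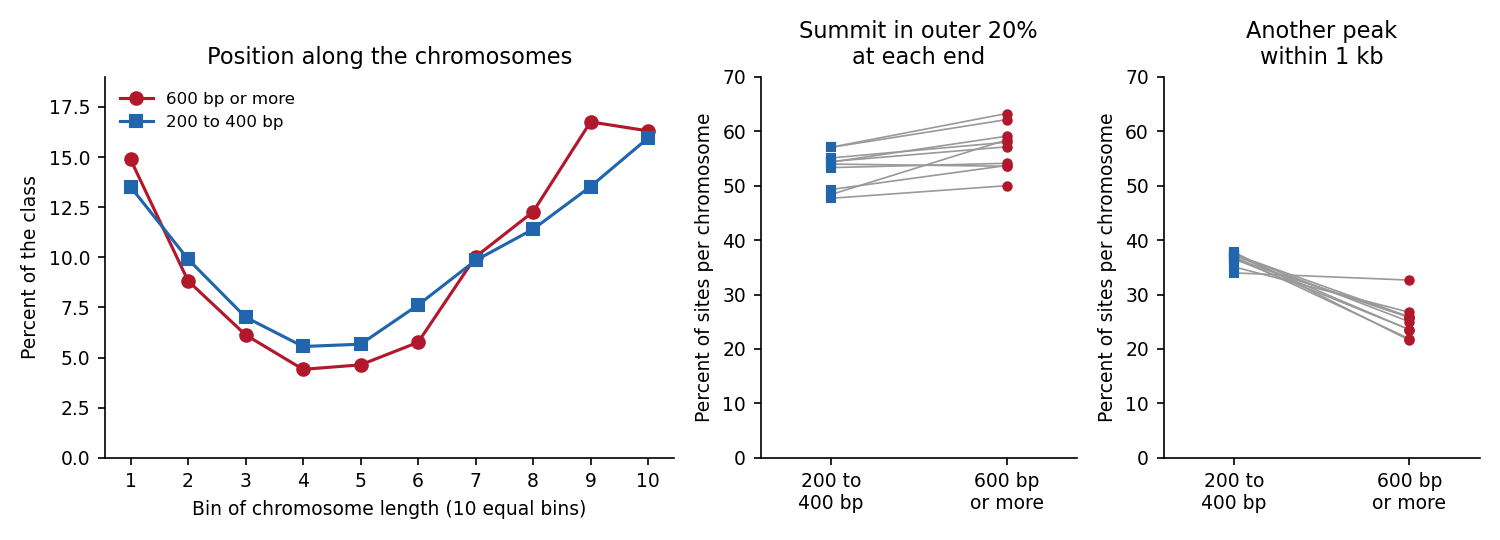
Left, percent of each class in each of 10 equal bins of chromosome length, all 10 chromosomes summed; centre and right, percent of sites per chromosome with the summit in the outer 20% at each end and with another merged peak within 1 kb, with a line joining the 2 classes of the same chromosome. Wide sites (red) are above the narrower class (blue) in the first bin and the last 4, and fewer of them have a close neighbour on 10 of 10 chromosomes.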

How the data were processed

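MH-seq libraries of 2 replicates were deposited as 3 peak lists, 1 per replicate and 1 merged. The submitters' processing notes name MACS2, Bowtie2, fastp 0.20.0 and SAMtools 1.5, with B73 RefGen_v4 as the build. The MACS2 settings and the making of the merged list were not given in the sources used here. A deposited row holds a start, an end, a fold enrichment ratio by the authors, a deposited −log10 q and a summit position, used only within its list. Gene annotation and sequence of the lists' build were not used here, so sites were not assigned to genes and no sequence is shown.

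Width is end minus start. Peaks overlap when they share at least 1 bp; splits count overlapping replicate peaks. Differences between classes were tested with exact two-sided sign-flip permutation tests over 10 chromosomes (1024 sign patterns), Benjamini-Hochberg adjusted over 4 tests, and tested on simulated peaks. The named sites follow fixed ranks: the 10 widest, the 5 strongest, the 3 weakest, the 5 with most replicate peaks (ties broken by width), the summit nearest an edge, the 3 most isolated and the 3 closest pairs. The members, classes and ranks were chosen with earlier results of these data known. Shares carry Wilson 95% intervals. Python 3.11.15, numpy 2.4.6, pandas 2.3.3 and scipy 1.17.1 were used.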

Additional observations from a re-analysis of the deposited data

How the results depend on the processing

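The shortage of neighbours within 1 kb kept its direction and stayed past 0.05 under 15 of 16 alternatives (-17.2 to -3.94 percentage points). The exception counts only peaks 5 to 20 kb away, chosen after seeing the data (3.39). No alternative counted peaks joined into a wide site as its neighbours, so none of them addresses that limit. Recurrence of width, whose direction was largely set beforehand, held under all 7 alternatives in both directions (31.3 to 69.5 and 58.6 to 80.2 points). The excess in the outer 20% turned to -0.259 points with a limit of 500 bp and to -2.90 for the outermost 5 Mb, and was not past 0.05 in the strongest quintile (1.81), for the outer 10% (1.91) or with either replicate left out (3.10 to 3.34); the cause was not tested. Without chromosome 6, also chosen after seeing the data, it was 3.20. The share of wide peaks (2.00%) was 5.28% with a limit of 500 bp, 0.790% with 700 bp, 3.14% with peaks within 100 bp joined, 2.48% at −log10 q of at least 20, and 0.849 to 1.22% with a replicate left out. The distance of the summit from the centre was 18.5% of width at 500 bp, 21.9% at 700 bp and 21.8 to 23.0% with a replicate left out, and median fold enrichment 9.03 to 9.88. The share split in at least 1 replicate was 21.5% at 500 bp, 38.8% at 700 bp and 14.9 to 23.4% in a single replicate. The 97.5% found in both replicates moved by less than its interval. Samples could not be paired because there is 1 group only, and the tests paired the 2 width classes within each chromosome. Without a known depth, absence or a break in a list near fold enrichment 5 does not show closed chromatin.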

Other observations

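Wide sites were few on the scale of 1 Mb. Of 2111 windows of 1 Mb, 1235 (58.5%) held none, 558 held 1 and 217 held 2. With 1337 sites for 2111 windows, many windows would be empty under any arrangement. No counterpart was counted for the narrower class, and evenness of spread was not tested. The 4 fullest windows held 6 each. They were chr5:201000001-202000000, with 42 merged peaks in all, chr9:136000001-137000000 with 52, chr9:141000001-142000000 with 56 and chr5:209000001-210000000 with 61. Replicate 1 had 5, 2, 3 and 4 wide peaks of its own in these windows, and replicate 2 had 4, 1, 4 and 2. These windows were picked for their counts, so the values are a description.

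Each chromosome also had a long stretch with merged peaks but no wide site. The longest was on chromosome 4, 20.7 Mb from 96987748 to 117730967, with 226 merged peaks, followed by 20.6 Mb on chromosome 7 (65593638 to 86216426, 277 merged peaks) and 20.3 Mb on chromosome 3 (122812100 to 143138591, 566 merged peaks). The shortest of the 10 was 9.83 Mb on chromosome 8. On chromosome 6 the stretch lay near the start, from 7535985 to 22197439, with 223 merged peaks. Wide sites were 1.56%, 2.02% and 2.33% of all merged peaks on chromosomes 4, 7 and 3. All 10 stretches were picked as the longest without a wide site, so their values are a description.

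Summits of wide sites lay on either side of the centre about equally often with respect to a close neighbour. Where another merged peak lay within 1 kb, the summit was on the neighbour's side of the centre in 164 of 341 wide sites (48.1%, Wilson 95% interval 42.8 to 53.4%) and in 47.7% (46.7 to 48.6%) of the 200 to 400 bp peaks. Sites broken into several peaks in both replicates had a median summit distance from the centre of 26.7% of the width and a median width of 738 bp, against 19.2% and 669 bp for the 922 broken in neither.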
